A study of Sus scrofa with 22 samples.

Results

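Cerebellar expression of 31 genes that mark Purkinje cells or carry their calcium signalling was compared between young pigs (Sus scrofa) with bile duct ligation (BDL) and pigs with sham surgery (SHAM). The members were named by symbol and found through their pig Ensembl identifiers. Of the 31 genes, 29 were found among the 31907 gene identifiers of the count tables, and 28 had enough reads to be tested. PPP1R17, a phosphatase inhibitor of Purkinje cells, and RYR1, a ryanodine receptor, were not matched and are not analysed here. ESRRB, a nuclear receptor, had 217 reads over all 22 libraries and is given as a level only.

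Bile duct ligation keeps bile from leaving the liver, and the study asked what this cholestasis does to balance and to the brain. The animals were operated on at day 8 of life and followed for 3 weeks, and the cerebellum was then sequenced as total RNA of the whole tissue. The BDL group had 11 animals, 7 females and 4 males, and the SHAM group had 11 animals, 5 females and 6 males. No breed, genetic change or other agent is given for either group, and the labels do not say which animals were littermates, so p-values measure the spread between these animals. Body weights ran from 1620 to 2540 in BDL animals and from 1660 to 2560 in SHAM animals, in a unit the labels do not give.

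Purkinje cells are the large inhibitory neurons whose axons are the only output of the cerebellar cortex. They fire on their own through voltage-gated channels, receive glutamate from climbing and parallel fibres, and answer it with calcium that enters from outside and calcium that IP3 (inositol trisphosphate) releases from internal stores. Calcium buffers and pumps then end the signal, and loss of several of the genes below, among them ITPR1, CA8, CACNA1A and RORA, causes ataxia in humans or mice.

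Levels are given in CPM, the usual scaling of the reads of a gene to the gene reads of its library, here after TMM correction of the library sizes. Libraries held between 14811464 and 20046909 gene reads, so counting error is small for most members; CALB1, for example, had at least 4883 reads in every library. The defining Purkinje cell markers CALB1, PCP2, PCP4, ITPR1 and CA8 were at 279 CPM or more in every animal. No transcript lengths were used, so CPM values of different genes are not set against each other. The 3 libraries farthest out on the first principal component of all genes, which held 14.8% of the variance, were those of BDL replicates 2, 4 and 8, all females. They scored 38.0, 29.3 and 27.4, and SHAM replicate 1, next in size at -24.5, was kept. No gap in the scores set the number 3. Leaving them out takes only BDL females, from 1 end of the component. Values without these 3 libraries are given for counts of the members and for a number of single members. Errors after a log2 fold change are standard errors throughout.

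No member passed the test for a change in the BDL cerebellum. BDL was tested against SHAM with edgeR's quasi-likelihood test beside sex, with Benjamini-Hochberg adjustment over all 14994 genes tested. It called 0 of the 28 members at an adjusted p under 0.05, and 0% of all genes tested. The smallest adjusted p among members was 0.881. At an unadjusted p under 0.05 there was 1 member of 28, DAB1, which is 3.57% of the members, against 4.96% of all genes. limma-voom called 0 genes, with 743 at an unadjusted p under 0.05, and DESeq2 called 1 gene, which was no member, with 769 at an unadjusted p under 0.05. The count of members at an unadjusted p under 0.05 was 2 with limma-voom and 3 with DESeq2. It ran from 1 to 4 with 1 animal left out, with 4 without BDL replicate 1, BDL replicate 3, SHAM replicate 4 or SHAM replicate 6. Point estimates were above 0 for 13 members and below 0 for 15, with a median log2 fold change of -0.0091, against a median of 0.00061 over all genes tested. Without BDL replicates 2, 4 and 8 the balance turned, to 16 members above 0 and 12 below with a median of 0.059, and still 0 members passed.

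The intervals show which changes these 22 animals leave possible. The 95% confidence interval of the fold change lay wholly inside 1.25-fold in either direction for 18 of 28 members (64.3%, against 63.6% of all genes tested). It lay inside 1.5-fold for 27 members (96.4%, against 87.1% of all genes) and inside 2-fold for all 28. The exception at 1.5-fold was ALDOC, which had few reads. In whole tissue, fewer Purkinje cells and less RNA per cell cannot be told apart, so a level of these genes reflects both.

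**Figure D1:**
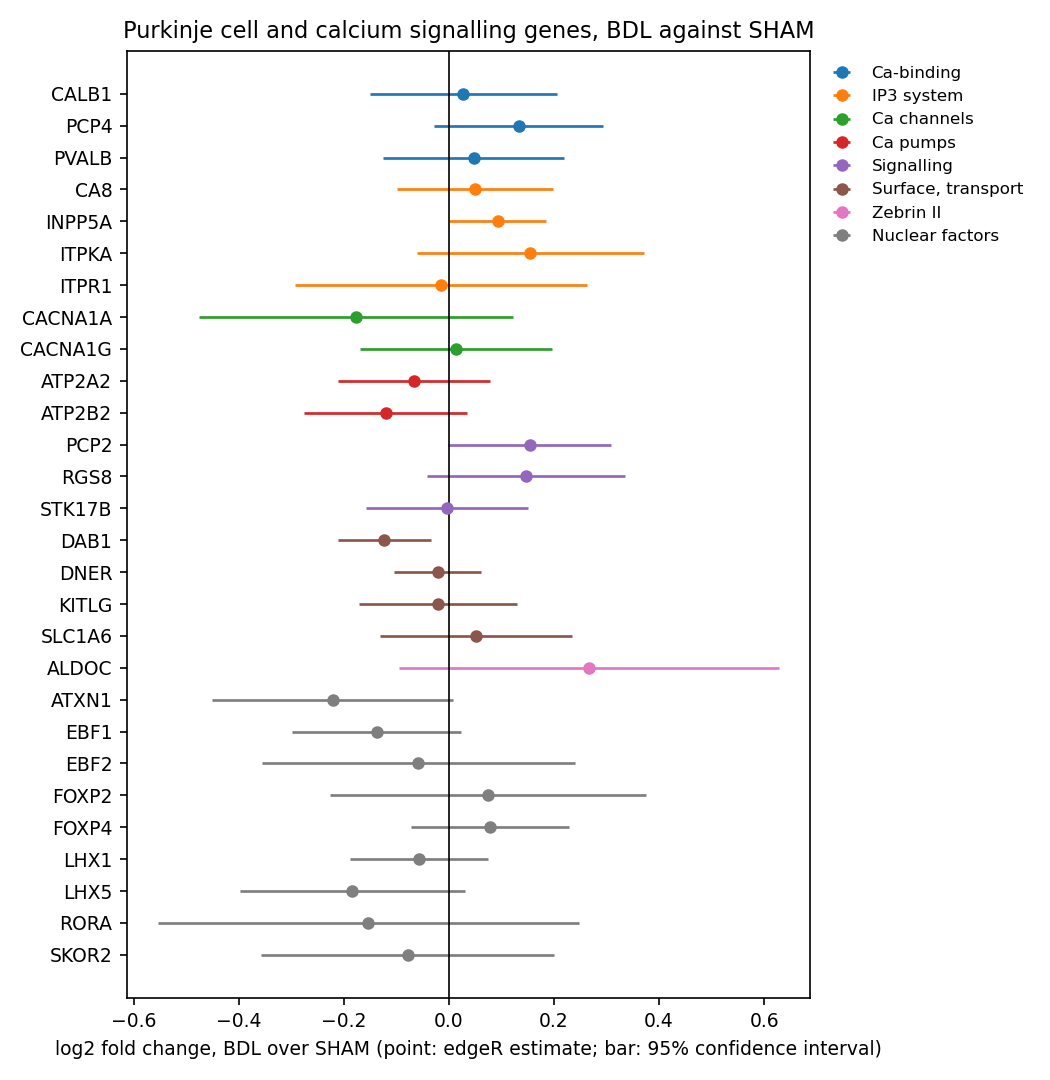
Log2 fold change of BDL over SHAM (x axis) for the 28 tested members (y axis), grouped by role. Points are edgeR estimates from 11 BDL and 11 SHAM animals and bars are 95% confidence intervals; the bars of all members except DAB1 reach 0, and RORA and ALDOC have the widest.

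The calcium-binding proteins differed between the groups by less than the spread between animals. CALB1 encodes calbindin, the fast calcium buffer that is the standard stain for Purkinje cells (Ensembl ENSSSCG00000006125; Sscrofa11.1 chromosome 4, 46701276 to 46723548). Across animals the lowest, median and highest levels were 300.5, 395 and 495 CPM in BDL animals, against 286, 400.2 and 476 CPM in SHAM animals. The 2 ranges overlap nearly completely, with 6 of 11 BDL animals above the SHAM mean. Its log2 fold change was 0.03 ± 0.09 (SE; edgeR adjusted p = 0.971), and the interval ran from 0.901-fold to 1.15-fold. PVALB encodes parvalbumin, a slower buffer that cerebellar interneurons also make, and averaged 318 ± 39.7 CPM in BDL animals and 307 ± 46.4 CPM in SHAM animals (SD, n = 11 each), a log2 fold change of 0.05 ± 0.08.

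PCP4 encodes a small peptide that binds calmodulin and speeds its exchange of calcium (chromosome 13, 203412479 to 203479216). Its lowest, median and highest levels were 396, 496 and 631 CPM in BDL animals, against 395, 456 and 561 CPM in SHAM animals. The upper end of the BDL group lay above that of the SHAM group while the lower ends met, and 8 of 11 BDL animals were above the SHAM mean. The log2 fold change was 0.13 ± 0.08 (unadjusted p = 0.101, edgeR adjusted p = 0.881).

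Among the genes of IP3 signalling, ITPR1 encodes the receptor through which IP3 releases calcium from the endoplasmic reticulum (chromosome 13, 61068131 to 61398918). Lowest, median and highest levels were 752, 1192 and 1675 CPM in BDL animals, against 865, 1168 and 1647 CPM in SHAM animals. The BDL range enclosed the SHAM range, and 4 BDL animals, among them the 3 libraries farthest out on the first component, lay below the lowest SHAM animal. The log2 fold change was -0.01 ± 0.13, with an interval from 0.817-fold to 1.20-fold, and 0.12 ± 0.12 without those 3 libraries. CA8, a carbonic anhydrase relative that binds the receptor and lowers its affinity for IP3, ran from 324 to 479 CPM in BDL animals and from 330.3 to 432 CPM in SHAM animals, with a log2 fold change of 0.05 ± 0.07.

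INPP5A encodes the phosphatase that removes a phosphate from IP3 and so ends its signal (chromosome 14, 140736729 to 140895943). Its lowest, median and highest levels were 311, 358 and 387 CPM in BDL animals, against 303, 332 and 372 CPM in SHAM animals. The groups overlap over most of their range, yet 10 of 11 BDL animals were above the SHAM mean. The difference was small, 1.07-fold with an interval from 0.9998-fold to 1.14-fold, and did not pass the test (unadjusted p = 0.0507, edgeR adjusted p = 0.881). ITPKA, the kinase that turns IP3 into a tetrakisphosphate, averaged 14.8 ± 2.20 CPM in BDL animals and 13.1 ± 2.75 CPM in SHAM animals (SD, n = 11 each), a log2 fold change of 0.16 ± 0.10.

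The calcium channels and pumps varied more between animals of a group than between the groups. CACNA1A, the pore of the P/Q-type channel that carries most of the calcium current of Purkinje cells, ran from 54.0 to 122 CPM with a median of 84.2 in BDL animals. In SHAM animals it ran from 55.0 to 160 CPM with a median of 92.2. Only 2 of 11 BDL animals were above the SHAM mean, which 1 SHAM animal at 160 CPM raised, and the log2 fold change was -0.18 ± 0.14, or -0.06 ± 0.14 without the 3 libraries. CACNA1G, the pore of a T-type channel, had a log2 fold change of 0.01 ± 0.09 and ran from 262 to 407 CPM in BDL animals and from 246 to 427 CPM in SHAM animals.

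ATP2B2, the pump that expels calcium across the plasma membrane, averaged 570.4 ± 56.6 CPM in BDL animals and 620.3 ± 90.5 CPM in SHAM animals (SD, n = 11 each). Its log2 fold change was -0.12 ± 0.08, and 9 of 11 BDL animals lay below the SHAM mean; without the 3 libraries it was -0.06 ± 0.07. ATP2A2, the SERCA pump that refills the internal stores, had a log2 fold change of -0.07 ± 0.07 and ran from 521 to 707 CPM in BDL animals and from 534 to 838 CPM in SHAM animals. The highest level of both pumps came from the same SHAM animal, replicate 1, and the lowest SHAM level of both from replicate 4.

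PCP2 encodes a regulator of G proteins that is found in Purkinje cells and in retinal bipolar cells (chromosome 2, 71471071 to 71519394). Its lowest, median and highest levels were 279, 407 and 453 CPM in BDL animals, against 301, 359.8 and 418 CPM in SHAM animals. The lowest animal of all was a BDL animal, and 9 of 11 BDL animals were above the SHAM mean. The fold change was 1.11, with an interval from 0.999-fold to 1.24-fold (unadjusted p = 0.0528, edgeR adjusted p = 0.881). RGS8, which speeds the switching off of G proteins, averaged 306 ± 49.5 CPM in BDL animals and 275 ± 44.2 CPM in SHAM animals (SD, n = 11 each), a log2 fold change of 0.15 ± 0.09. STK17B, a kinase of the death-associated family, had a log2 fold change of -0.0037 ± 0.08 and overlapped throughout, from 41.5 to 64.2 CPM in BDL animals and from 45.1 to 64.6 CPM in SHAM animals.

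DAB1 encodes the adaptor that passes on the reelin signal by which Purkinje cells reach their layer (chromosome 6, 154156595 to 155374403). It had the smallest p of the members. The lowest, median and highest levels of DAB1 were 67.4, 75.1 and 81.6 CPM in BDL animals, against 74.4, 82.0 and 86.7 CPM in SHAM animals. The BDL range sat below the SHAM range and overlapped it over its upper part, and 10 of 11 BDL animals lay below the SHAM mean. The fold change was 0.918, with an interval from 0.864-fold to 0.977-fold, and it did not pass the test across all genes (unadjusted p = 0.00853, edgeR adjusted p = 0.881). DAB1 varied little between animals: 3.23% of all genes tested had a lower biological coefficient of variation than its 7.37%.

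The other surface proteins and transporters differed by less than the spread between animals. DNER, a Notch ligand by which Purkinje cells act on Bergmann glia, was the steadiest member and averaged 578 ± 22.7 CPM in BDL animals and 588 ± 36.3 CPM in SHAM animals (SD, n = 11 each). KITLG, the ligand of the KIT receptor on interneurons, had a log2 fold change of -0.02 ± 0.07 and ran from 37.0 to 57.5 CPM in BDL animals and from 38.8 to 53.2 CPM in SHAM animals. SLC1A6, the glutamate transporter EAAT4 of Purkinje cell spines, had a log2 fold change of 0.05 ± 0.09, or 0.14 ± 0.08 without the 3 libraries, and ran from 149 to 252 CPM in BDL animals and from 148 to 237 CPM in SHAM animals. ALDOC, the aldolase known as zebrin II that marks stripes of Purkinje cells, had only 879 reads over all libraries. It ran from 1.95 to 3.39 CPM in BDL animals and from 0.827 to 3.06 CPM in SHAM animals, and its log2 fold change of 0.27 ± 0.18 was the highest of the members and did not pass the test (edgeR adjusted p = 0.881).

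Of the 9 tested nuclear factors, 2 had estimates above 0 and 7 below, and none passed the test. ATXN1, a nuclear protein whose expanded form causes spinocerebellar ataxia (chromosome 7, 12299938 to 12730850), had the lowest estimate of all members. Its lowest, median and highest levels were 13.9, 20.5 and 28.0 CPM in BDL animals, against 19.6, 22.3 and 34.9 CPM in SHAM animals. The groups overlap, but 10 of 11 BDL animals lay below the SHAM mean. The log2 fold change was -0.22 ± 0.11 (unadjusted p = 0.0586, edgeR adjusted p = 0.881). Without the 3 libraries farthest out on the first component it was -0.12 ± 0.10.

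RORA, the nuclear receptor lost in the staggerer mouse, varied most between animals, with a biological coefficient of variation of 30.8%. It ran from 10.6 to 39.4 CPM in BDL animals and from 18.9 to 45.8 CPM in SHAM animals, and its log2 fold change was -0.15 ± 0.19, or 0.06 ± 0.14 without the 3 libraries. LHX1 and LHX5, factors of early Purkinje cell fate, had log2 fold changes of -0.06 ± 0.06 and -0.18 ± 0.10, or -0.0024 ± 0.06 and -0.14 ± 0.11 without the 3 libraries. For LHX5, 9 of 11 BDL animals lay below the SHAM mean, at 11.8 ± 2.20 CPM in BDL animals and 13.2 ± 2.14 CPM in SHAM animals (SD, n = 11 each). EBF1 and EBF2, factors of neuronal differentiation, had log2 fold changes of -0.14 ± 0.08 and -0.06 ± 0.14. SKOR2, a co-repressor needed for Purkinje cell maturation, had one of -0.08 ± 0.14.

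The forkhead factors FOXP2 and FOXP4 were the pair with estimates above 0, at 0.07 ± 0.15 and 0.08 ± 0.07, or 0.17 ± 0.15 and 0.11 ± 0.08 without the 3 libraries. FOXP2 ran from 7.23 to 14.7 CPM in BDL animals and from 5.83 to 14.0 CPM in SHAM animals, and FOXP4 from 31.3 to 45.5 CPM in BDL animals and from 28.1 to 40.8 CPM in SHAM animals. ESRRB lay between 0.0640 and 1.01 CPM in BDL animals and between 0.307 and 1.17 CPM in SHAM animals, which is 1 to 20 reads per library and too few to test.

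**Figure D2:**
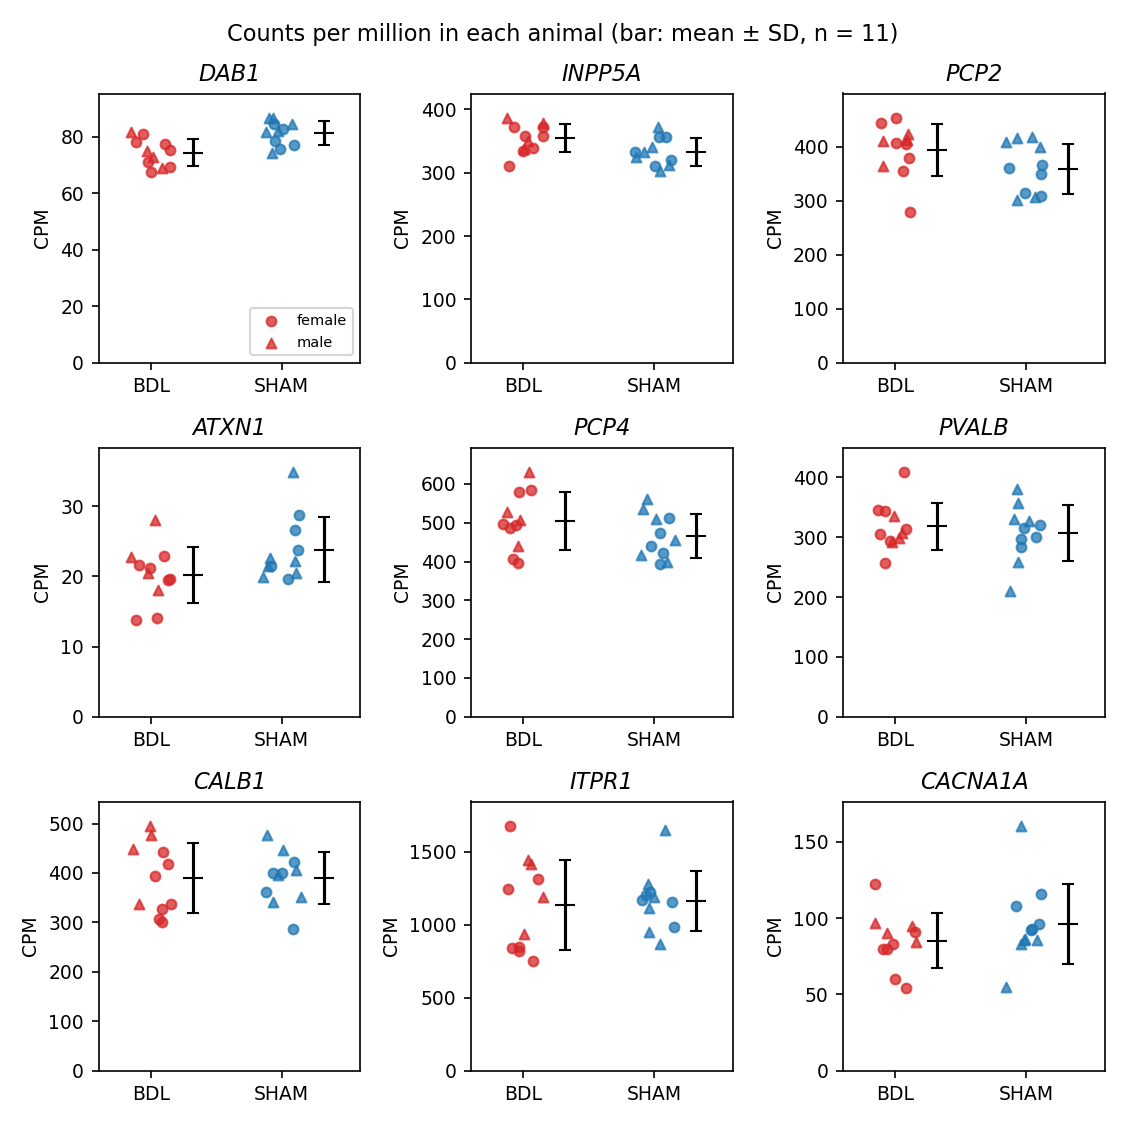
CPM (y axis, from 0) of 9 members in each animal, with BDL left of SHAM. Circles are females, triangles are males, and the black marks give the mean ± SD of 11 animals; the 2 groups overlap in every panel, most of the BDL points of DAB1 and ATXN1 lie under the SHAM mean, and those of INPP5A and PCP2 lie over it.

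Other genes of the same machinery were taken from lists of partners, and none of them passed the test. Among 15 tested genes of the cascade from glutamate receptors to IP3, 5 had estimates above 0 and 10 below. PLCB4, the phospholipase that makes IP3 in many Purkinje cells, averaged 216 ± 21.9 CPM in BDL animals and 239.9 ± 9.0 CPM in SHAM animals (SD, n = 11 each). Its log2 fold change was -0.16 ± 0.05, with 8 of 11 BDL animals below the SHAM mean (unadjusted p = 0.00382, edgeR adjusted p = 0.881). PLCB3, a related phospholipase, had a log2 fold change of 0.14 ± 0.06.

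Among 22 tested channel, pump and exchanger genes, 9 had estimates above 0 and 13 below. CACNA1B, also on that list, was not tested and has no estimate. The smallest p values there belonged to the pump ATP2B1 (log2 fold change -0.10 ± 0.05) and the channel subunits CACNB4 (-0.21 ± 0.11) and CACNA2D2 (0.13 ± 0.07). Of 17 tested calmodulin and calcium-activated effectors, 8 had estimates above 0 and 9 below. CALB2, which encodes calretinin, a buffer of granule and unipolar brush cells rather than Purkinje cells, averaged 38.3 ± 9.84 CPM in BDL animals and 47.7 ± 10.2 CPM in SHAM animals (SD, n = 11 each). Its log2 fold change was -0.32 ± 0.13, with 10 of 11 BDL animals below the SHAM mean (unadjusted p = 0.0241, edgeR adjusted p = 0.881). CAMK2A, a calmodulin-dependent kinase, had a log2 fold change of 0.11 ± 0.06, and KCNMA1, the calcium-activated BK channel, one of -0.09 ± 0.10.

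Of 18 other tested Purkinje cell genes, 8 had estimates above 0 and 10 below. The smallest p values there belonged to the calcium sensor HPCA (log2 fold change 0.17 ± 0.08), the kainate receptor subunit GRIK1 (-0.13 ± 0.07) and GRID2IP, the scaffold of the delta glutamate receptor (0.13 ± 0.07). Between them, 5 of the 72 tested genes of the 4 partner lists had an unadjusted p under 0.05, which is 6.94%, against 4.96% of all genes.

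Markers of other cerebellar cells were summed per animal, to show what else moved in the tissue. The 10 granule neuron markers summed to a median of 5178 CPM in BDL animals and 5258 CPM in SHAM animals, and 7 of them had estimates below 0; the lowest p belonged to GABRA6, a receptor subunit of mature granule cells (log2 fold change -0.10 ± 0.05), followed by FAT2 (-0.22 ± 0.13). The 9 interneuron markers summed to a median of 598 CPM in BDL animals and 632 CPM in SHAM animals; PVALB, itself a member, averaged 318 CPM in BDL animals and 307 CPM in SHAM animals of that sum, so it is not independent of the members. The 7 mature oligodendrocyte markers summed to 4850, 16283 and 27678 CPM (lowest, median and highest) in BDL animals, against 6944, 14195 and 24317 CPM in SHAM animals, so their spread within a group was wider than the gap between groups; all 7 had estimates above 0, and MAG, a myelin protein, had a log2 fold change of 0.22 ± 0.21. The 7 astrocyte and Bergmann glia markers had 1 estimate above 0 and 6 below, with medians of 6232 CPM in BDL animals and 5579 CPM in SHAM animals. Most of that sum was GFAP, which averaged 3817 CPM in BDL animals and 3707 CPM in SHAM animals. GFAP was also the marker with the estimate above 0 (0.06 ± 0.13). The lowest p of the list belonged to TNC (log2 fold change -0.22 ± 0.10, unadjusted p = 0.0428, edgeR adjusted p = 0.881). Microglia and endothelial markers summed to medians of 146 and 127 CPM in BDL animals, against 142 and 121 CPM in SHAM animals. Choroid plexus markers, led by TTR, ran from 10.1 to 1432 CPM in BDL animals and from 1.93 to 878 CPM in SHAM animals, and the 2 tested deep nuclei markers summed to 67.0 CPM in BDL animals and 62.0 CPM in SHAM animals. Across the 22 animals, 0 of 28 members were correlated with the oligodendrocyte markers (smallest adjusted permutation p = 0.985) and 0 of 28 with the granule neuron markers (smallest adjusted permutation p = 0.186). At an unadjusted p under 0.05, 7 of 28 members (25.0%) went with or against the granule neuron markers, at an r of 0.426 or more in size, which 18.2% of all other genes also reached. Some members had r of opposite sign within BDL and within SHAM animals, which r over all 22 hides. With the granule neuron markers, ATP2A2 had -0.60 in BDL and 0.80 in SHAM animals, and SLC1A6 -0.64 and 0.74. PCP2 was below 0 in both, at -0.37 and -0.53. With the oligodendrocyte markers, KITLG had 0.325 and -0.69, and PCP2 -0.19 and -0.24. The r within a group was not tested.

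Sex and body weight were tested as well. In females against males, edgeR called 9 of 14994 genes (0.06%), none of them a member. Of the members, 20 of 28 had lower estimates in females, against 7551 of all 14994 genes, and 2 had an unadjusted p under 0.05 (7.14%, against 5.95% of all genes). With BDL replicates 2, 4 and 8 left out, 17 of 28 had lower estimates in females. Many members vary together between animals, as given below, so counts of direction here and elsewhere are not counts of independent genes. CALB1 averaged 366 ± 53.5 CPM in 12 females and 417 ± 59.6 CPM in 10 males, with 9 of 12 females below the male mean, a log2 fold change of -0.19 ± 0.09 (unadjusted p = 0.0358, edgeR adjusted p = 0.820). STK17B averaged 50.3 ± 6.98 CPM in females and 56.7 ± 5.97 CPM in males, a log2 fold change of -0.17 ± 0.08 (unadjusted p = 0.0320, edgeR adjusted p = 0.798). Neither passed the test across all genes, and without BDL replicates 2, 4 and 8 neither had an unadjusted p under 0.05.

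The interaction of BDL with sex called 0 genes by edgeR (0%), by limma-voom and by DESeq2, with 689 genes at an unadjusted p under 0.05 in edgeR (4.6% of all genes, against 1 of 28 members, 3.57%). Its estimate was below 0 for 21 of 28 members, meaning a lower BDL over SHAM ratio in females than in males, with a median of -0.11 against 0.0074 over all genes tested. Without BDL replicates 2, 4 and 8, which are all females, 14 members were below 0 and 14 above. FOXP4 had the smallest interaction p among members: its log2 fold change of BDL over SHAM was -0.07 ± 0.09 in females and 0.26 ± 0.10 in males, an interaction of -0.33 ± 0.13 (unadjusted p = 0.0223, edgeR adjusted p = 0.917). With BDL replicates 2, 4 and 8 left out, the FOXP4 interaction was -0.30 ± 0.15 (edgeR unadjusted p = 0.0507). No member then had an unadjusted interaction p under 0.05. Within each sex, edgeR called 0 genes (0%; 874 genes in females and 612 in males at an unadjusted p under 0.05) and so did limma-voom. DESeq2 called 0 in females and 1 in males, which was no member. At an unadjusted p under 0.05 there were 2 members in females, ATP2B2 at -0.23 ± 0.10 and ATXN1 at -0.34 ± 0.15 (7.14%, against 5.83% of all genes). Without BDL replicates 2, 4 and 8, all BDL females, there were 0, and the members' balance in females was 16 above 0 and 12 below, against 9 and 19 with all animals. There were 2 in males, FOXP4 and DAB1 at -0.15 ± 0.07 (7.14%, against 4.08% of all genes). Body weight called 0 genes by edgeR (0%, with 1108 genes at an unadjusted p under 0.05, 8 calls by DESeq2 and 0 by limma-voom), and the 2 members at an unadjusted p under 0.05 (7.14%, against 7.39% of all genes) were FOXP2 and LHX1, at 0.15 ± 0.07 and 0.07 ± 0.03 log2 units per standard deviation of weight (edgeR adjusted p = 0.675 for both). Weight estimates were above 0 for 15 members and below 0 for 13. With BDL replicates 2, 4 and 8 left out they were above 0 for 11 and below 0 for 17, and 1 member had an unadjusted p under 0.05.

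Many members varied together from animal to animal. With CALB1 as the yardstick, 7 of the other 27 members were correlated over the 22 animals at an adjusted permutation p under 0.05, all of them positively. The share of all 14993 other genes at or above the lowest such r, 0.561, was 2.83%. They were CA8, STK17B, KITLG, ITPR1, ATP2A2, PCP4 and SLC1A6. CA8 had a Pearson r of 0.860 and a Spearman rho of 0.816 with CALB1 (permutation p = 1e-05 for each, the smallest the 100000 permutations can give; adjusted p = 0.000135 for each). The r was 0.935 within BDL animals and 0.737 within SHAM animals, and 0.847 without SHAM replicate 11 and BDL replicate 4, the 2 animals farthest from the CALB1 median. STK17B followed with an r of 0.813 and ITPR1 with an r of 0.747, at 0.764 and 0.737 without the same 2 animals. PCP2 and PVALB, which are also high in Purkinje cells, did not follow CALB1, with r of 0.262 and -0.030.

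**Figure D3:**
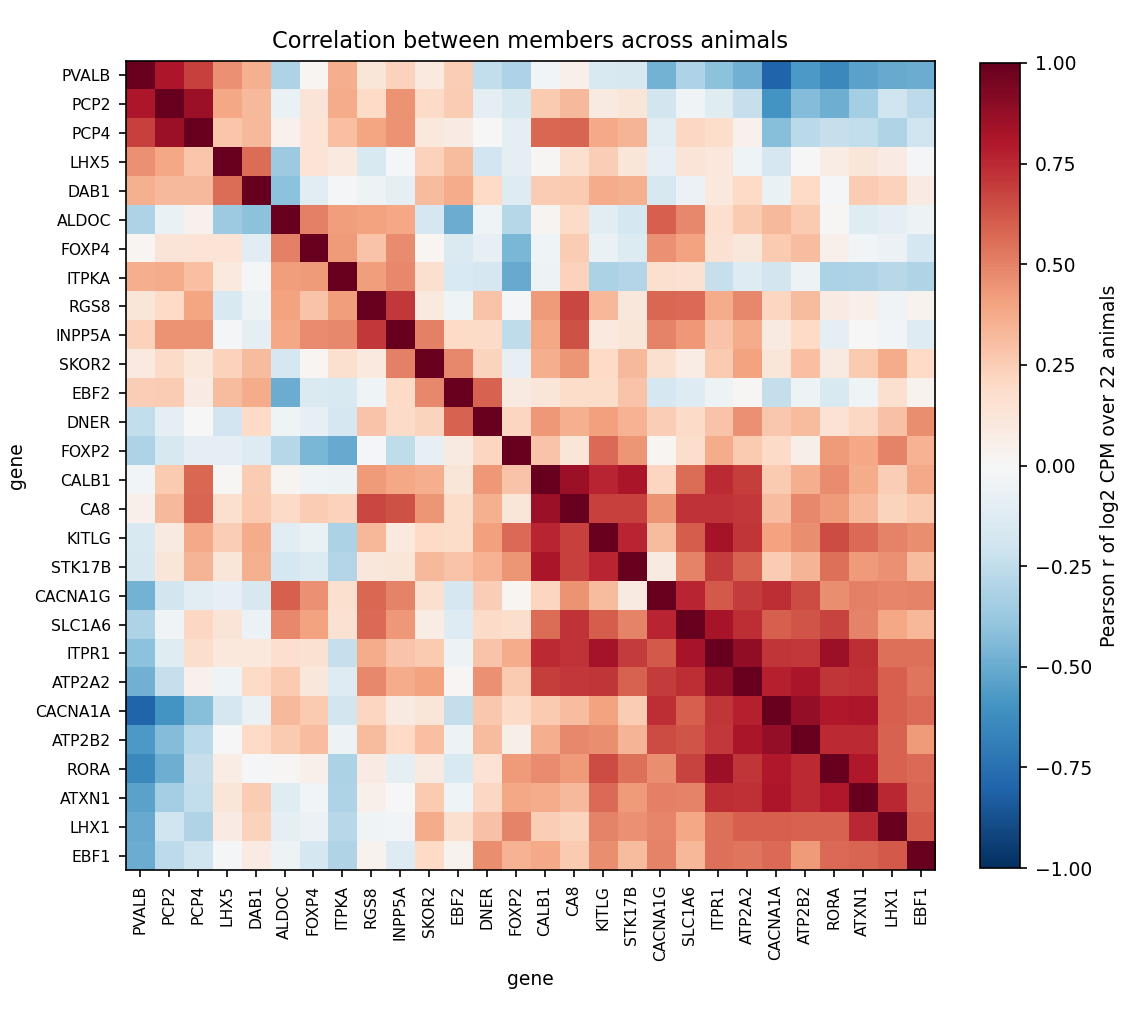
Pearson correlation (colour, from -1 in blue to 1 in red) of log2 CPM over 22 animals for every pair of the 28 tested members, ordered by average-linkage clustering. ITPR1 and ATP2A2 are red against the most other members, and PVALB is blue against CACNA1A at -0.80.

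All 378 pairs of the 28 members were then correlated, a step chosen after seeing the data. At an adjusted permutation p under 0.05 (over the 378 pairs), 70 pairs were positive, which is 18.5% of pairs; 3.17% of all gene pairs reached the same r of 0.547. Another 4 pairs, 1.06%, were negative, where 2.13% of all gene pairs reached -0.572. All 70 positive pairs kept an r above 0 and all 4 negative pairs an r below 0 within BDL animals and within SHAM animals taken alone. The pairs were picked by their r over these same animals, so this is not separate support. ITPR1 had 13 positive partners and ATP2A2 12. RORA had 10 positive partners and 1 negative, CACNA1A 9 positive and 2 negative, and SLC1A6 10 positive, while FOXP4, ITPKA and SKOR2 had none. Without BDL replicates 2, 4 and 8, 50 positive and 2 negative pairs passed.

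The closest pair was made of the 2 members with the most positive partners. Whether it reflects a link between release and refilling of the internal calcium store was not tested. The receptor ITPR1 and the pump ATP2A2 had an r of 0.890 and a rho of 0.859 (permutation p = 1e-05 and adjusted p = 0.000378 for r). The r was 0.914 within BDL animals and 0.925 within SHAM animals, and 0.864 without the 2 animals farthest from the ITPR1 median, BDL replicates 2 and 4. The channel CACNA1A and the pump ATP2B2, at the plasma membrane, had an r of 0.875 and a rho of 0.885, and 0.904 without SHAM replicate 1 and BDL replicate 8. PCP2 and PCP4 had an r of 0.856 and a rho of 0.901, and 0.824 without BDL replicate 1 and SHAM replicate 1. ITPR1 and RORA had an r of 0.854, and PCP2 and PVALB one of 0.808.

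The negative pairs all set PVALB or PCP2 against a channel, a pump or RORA. CACNA1A and PVALB had an r of -0.80 and a rho of -0.56 (permutation p = 2e-05, adjusted p = 0.000667 for r). The animal with the highest CACNA1A, SHAM replicate 1 at 160 CPM, had the lowest PVALB at 210 CPM. The animal with the lowest CACNA1A, BDL replicate 8 at 54.0 CPM, had the highest PVALB at 409 CPM. Without these 2 animals the r was -0.59. RORA and PVALB had an r of -0.65, and -0.60 without BDL replicates 2 and 8. PCP2 and CACNA1A had one of -0.60, and -0.40 without BDL replicate 1 and SHAM replicate 1. ATP2B2 and PVALB had one of -0.57, which rested on SHAM replicates 1 and 4 and was -0.21 without them.

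**Figure D4:**
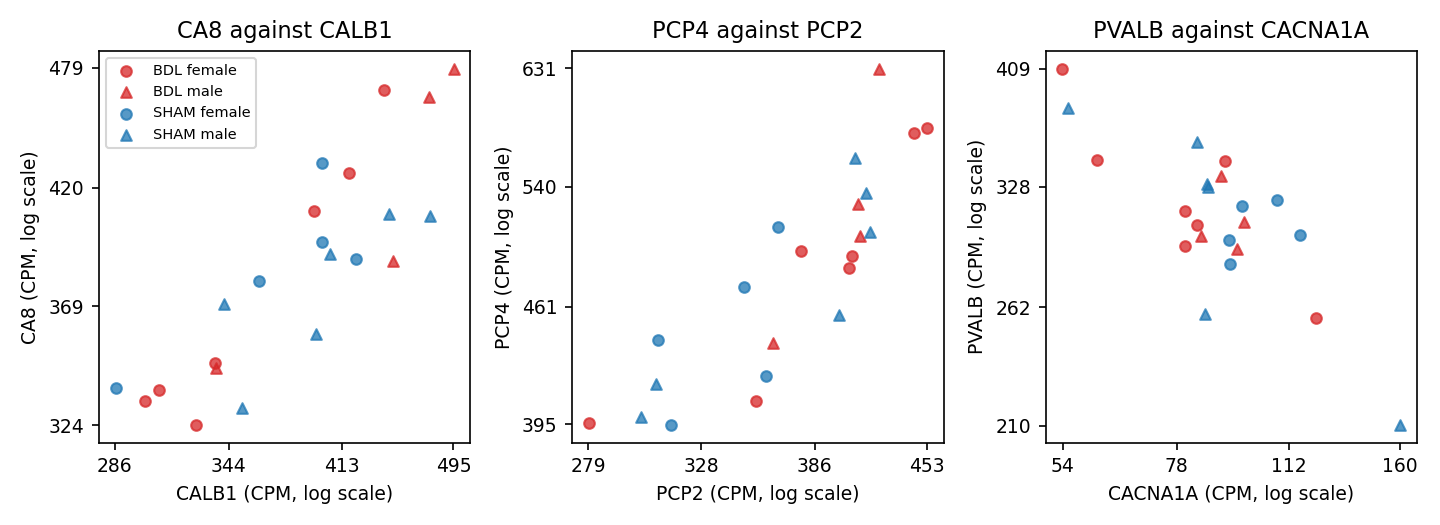
CPM of 3 pairs of members in each animal on log scales: CA8 against CALB1 (r = 0.860), PCP4 against PCP2 (r = 0.856) and PVALB against CACNA1A (r = -0.80). BDL animals are red and SHAM animals blue, circles are females and triangles males, and the points of both groups lie along each trend.

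Some members also moved with a property of the libraries. The share of gene reads that fell in 46 ribosomal protein genes had a lowest, median and highest value of 1.42%, 1.73% and 2.06% in BDL animals, against 1.35%, 1.64% and 2.25% in SHAM animals. Its lowest and highest values over all 22 belonged to SHAM replicates 1 and 4. Of the 28 members, 8 were correlated with it at an adjusted permutation p under 0.05, 3 positively and 5 negatively, a step also chosen after seeing the data. PVALB (r = 0.70), PCP2 (0.59) and PCP4 (0.52), 3 of the 28 members, went with the share. A similar part of all genes, 8.78%, reached the lowest of these. CACNA1A (-0.85), ATP2B2 (-0.78), CACNA1G (-0.73), RORA (-0.56) and ATP2A2 (-0.55), 5 of the 28 members, went against the share. The weakest of these was reached by 7.26% of all genes.

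Without SHAM replicates 1 and 4, over 20 animals, only CACNA1A passed, at an r of -0.76. The other r values without them were 0.55 for PVALB, 0.53 for PCP2, 0.51 for PCP4, -0.61 for ATP2B2, -0.58 for CACNA1G, -0.45 for RORA and -0.31 for ATP2A2. They kept their sign, and ATP2A2 moved most. With sex and treatment taken out of every gene, 85 positive and 6 negative pairs of members passed; with the share taken out too, 82 positive and 2 negative pairs passed, and CACNA1A with PVALB had an r of -0.50. In genome span, the genes that went against the share covered 764 kb (RORA), 379 kb (CACNA1A), 371 kb (ATP2B2), 73.7 kb (CACNA1G) and 70.3 kb (ATP2A2), and those that went with it 66.7 kb (PCP4), 48.3 kb (PCP2) and 19.7 kb (PVALB). Members that did not pass were mixed. Long ones were DAB1 (1218 kb, r = 0.18), FOXP2 (555 kb, 0.14), ATXN1 (431 kb, -0.49), EBF1 (395 kb, -0.35), DNER (340 kb, -0.19) and ITPR1 (331 kb, -0.41). Short ones included ALDOC (3.90 kb, -0.45), LHX1 (6.88 kb, -0.36), LHX5 (9.68 kb, 0.16), ITPKA (10.5 kb, -0.13), SLC1A6 (21.8 kb, -0.49) and CALB1 (22.3 kb, 0.02). A relation of span to r over all members was not tested. The part of the ribosomal protein share, of RNA quality or of dissection in these relations was not tested. With the share as a covariate the BDL against SHAM fit still called 0 genes; the log2 fold change was -0.08 ± 0.07 for CACNA1A and -0.13 ± 0.04 for DAB1.

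**Figure D5:**
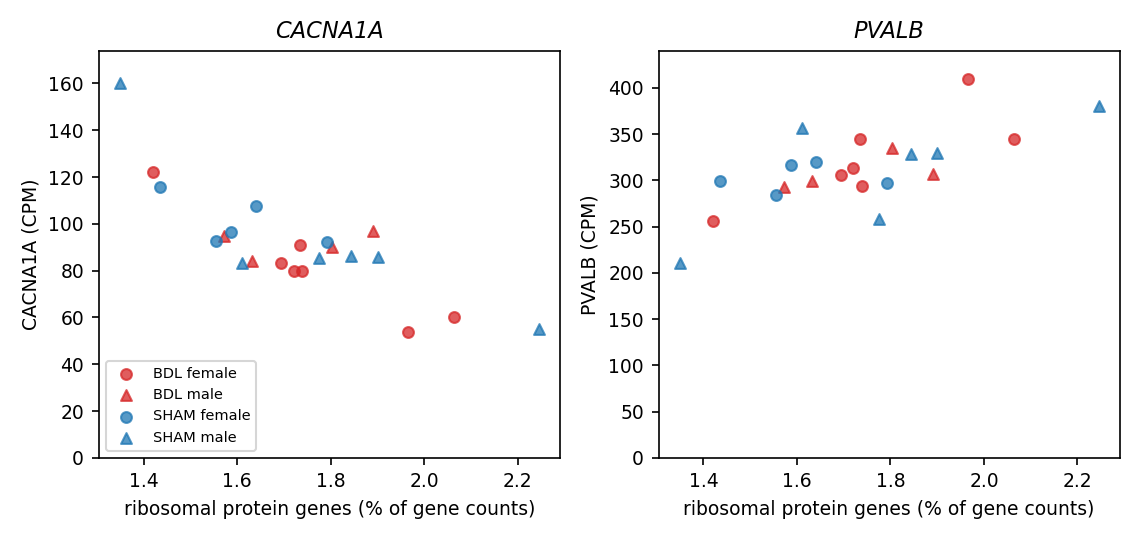
CACNA1A and PVALB (CPM, y axes from 0) against the percent of gene reads in ribosomal protein genes (x axis) in each animal. BDL is red and SHAM blue, circles are females and triangles males; CACNA1A falls along the axis (r = -0.85) and PVALB climbs (r = 0.70), with SHAM replicates 1 and 4 at the 2 ends.

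The extremes of the members fell repeatedly on the same animals. SHAM replicate 1 was the highest SHAM animal for 12 of the 28 members and SHAM replicate 4 the lowest for 11. Among BDL animals, replicate 7 was the highest for 9 members and replicate 3 for 8, and the lowest levels were spread over replicate 1 with 6 members, replicates 4 and 8 with 5 each and replicate 2 with 4.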

How the data were processed

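RNA of 22 cerebella was sequenced, 11 BDL and 11 SHAM. The authors deposited a table of raw read counts by Ensembl gene for each animal. Trim Galore, HISAT2, HTSeq, DESeq2 and the build Sscrofa11.1 are named in the submitters' processing notes. No source used here gives their versions or the strand setting, so reads of overlapping antisense genes may not be told apart. Between 29.9% and 34.6% of counted reads fell in lines that name no gene and were left out. Of 31907 identifiers, 15029 were matched to a symbol; positions were looked up by symbol in RefSeq genes on Sscrofa11.1. Over the 231 pairs of libraries the chi-square per gene was 7.20 to 51.9, so no library looked deposited more than once.

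Genes were kept with filterByExpr (minimum count 10, minimum total 15). Counts were scaled by TMM and tested with edgeR 4.0.16 in R 4.3.3 (quasi-likelihood, robust, terms for sex and treatment; 4 groups for the interaction; body weight added per standard deviation). All p-values are two-sided and were adjusted over all genes. Correlations used log2 CPM with a prior count of 2 and 100000 permutations, and were adjusted within each family (27 with CALB1, 28 with each other measure, 378 pairs). limma 3.58.1 and DESeq2 1.42.0, other normalization, filters, covariates and left-out animals were the alternatives. The code was tested on simulated data. The members and lists were chosen with earlier results of these data known. All members are named; lowest, median and highest levels are given for the 4 with the smallest p and for CALB1, PCP2, PCP4 and ITPR1, and of each partner list up to 3 genes with the smallest p are named; 1 such result is not reported here. Other genes given levels were chosen after their values were seen.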

Additional observations from a re-analysis of the deposited data

Results flagged for a closer look

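Among the 28 tested members in the 4 groups of treatment and sex, 112 sets of animals were screened for a single animal far from the rest by Dixon's criterion, which chance passes in about 1 in 20 sets, and 4 passed. SKOR2 was at 5.65 CPM in 1 BDL male (replicate 5), against 4.54 CPM in the nearest of the other BDL males. CACNA1A was at 160.4 CPM in 1 SHAM male (replicate 1), against 86.1 CPM in the nearest, and the same animal had the high value of ATXN1, 34.9 CPM against 22.6 CPM. RGS8 was at 393 CPM in 1 SHAM female (replicate 6), against 290.0 CPM in the nearest.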

How the results depend on the processing

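No paired analysis was possible because replicates are numbered in accession order, which pairs no animals. Over 34 alternatives for each of 28 members, 952 log2 fold changes of BDL over SHAM were computed; 0 passed the threshold, 899 kept their direction and 53 changed sign, in 14 members. The cause was not tested. Among females alone the values were -0.055 for CALB1, -0.035 for CA8, -0.071 for FOXP4, -0.048 for CACNA1G, 0.089 for EBF2 and -0.038 for SLC1A6. Among males alone they were 0.087 for ITPR1, 0.045 for RORA, -0.00089 for FOXP2, 0.031 for SKOR2, 0.0032 for KITLG, 0.0042 for STK17B, 0.0080 for ATP2B2 and -0.012 for PVALB. Without the 3 libraries farthest out on the first component, an alternative added after seeing the data, they were 0.12 for ITPR1, 0.059 for RORA, 0.038 for KITLG, 0.058 for STK17B and -0.012 for PVALB. CALB1 was at -0.0024 with no sex term, STK17B at 0.0014 with no count filter, and ITPR1 at 0.032 with the ribosomal protein share. Leaving out 1 animal at a time gave -0.0080 to 0.063 for CALB1, -0.089 to 0.033 for ITPR1, -0.022 to 0.071 for CACNA1G, -0.11 to 0.010 for EBF2, -0.058 to 0.020 for KITLG, -0.13 to 0.0073 for SKOR2 and -0.037 to 0.033 for STK17B.

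BDL against SHAM had 1 call with DESeq2 and 0 in every other fit. Female against male had 9 calls, but 23 with DESeq2, 31 with no count filter, 25 without the 3 libraries and 7 to 26 with 1 animal left out; body weight had 0, but 8 with DESeq2, 23 without the 3 libraries and 0 to 9 with 1 animal left out. Members correlated with the ribosomal protein share numbered 8, but 1 without the 2 animals farthest from its median and 5 without the 3 libraries. ALDOC, with 879 reads, and ESRRB, with 217, are limited by few reads, and the reason for their low counts was not tested.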
